A study of Marchantia polymorpha with 9 samples.

Results

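A set of 25 genes of the liverwort Marchantia polymorpha had almost no reads in Mpb-gata1-2 plants while their levels in Mpb-gata1-1 plants and in BoGa plants were alike. They were chosen by level in all 3 groups. A gene had to lie on chromosomes 1 to 8, to average at least 1 CPM (unique gene reads per 1000000 of the library) in both Mpb-gata1-1 and BoGa with means within 2-fold of each other, and to average under 1/8 of each of these means in Mpb-gata1-2. Of the 20574 genes in the tables, 20090 lie on chromosomes 1 to 8 and 11869 of these had similar Mpb-gata1-1 and BoGa means of at least 1 CPM. The criteria for Mpb-gata1-2 were met by 29 of them. The rule leaves out 7 listed genes, of which 4 peroxidase genes (MpPOD90, MpPOD92, MpPOD98 and MpPOD153) were among the 29, which leaves 25 genes, or 0.211% of the 11869. Because the levels chose the genes, levels and fold changes of the 25 are a description and carry no test here.

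The 9 RNA sequencing libraries came from whole thallus plants aged 3 weeks, with 3 libraries each of Mpb-gata1-2, Mpb-gata1-1 and BoGa, the wild type. All plants were grown without treatment on 1/2 Gamborg's B5 medium at 22 °C with 16 h of light and 8 h of dark, and each library was made from 3 plants pooled. The labels do not describe the lesions of the mutants, and with 1 line for each allele the mutation and the genetic background of the line cannot be told apart. Nothing in the labels says that the pools of a group were separate cultures, and p-values therefore reflect how much these pools vary, which may be technical.

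The mutated gene belongs to the B-GATA family, zinc finger transcription factors that in flowering plants act in greening and in responses to light and cytokinin. The thallus is the haploid body of the plant, so each autosomal gene is present in a single allele. Of the 25 genes, 23 carry no name in the gene table used here and are given by their identifiers, with no role stated. The other two are MpDIR29 (Mp5g18400), named as a dirigent protein gene, and MpCupin98 (Mp6g21050), named as a cupin gene. Dirigent proteins steer the coupling of phenylpropanoid radicals toward products of defined stereochemistry. Cupins are a large family of barrel-shaped proteins, among them germin-like proteins and the storage globulins of seeds.

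Libraries held 24369754 to 43370483 unique gene reads, 98.2 to 98.3% of all gene reads, so that a single read was worth 0.0231 to 0.0410 CPM. MpGATA4 (Mp7g03490), taken to be the mutated gene from knowledge of the study and not from the tables, stood at 288 to 291 CPM in Mpb-gata1-2, 255 to 263 CPM in Mpb-gata1-1 and 148 to 153 CPM in BoGa, which does not show which allele a library carries. The V level, the median of 22 genes of the male V chromosome relative to their mean in Mpb-gata1-2, was 0.947 to 1.04 in Mpb-gata1-2, 0.0171 to 0.0254 in Mpb-gata1-1, and 0.359, 0.515 and 0.665 in BoGa replicates 1, 2 and 3. BoGa replicates 1 and 3 also differed most among replicate pairs, with a chi-square per degree of freedom of 43.4, against 8.19 for the closest pair. Marker genes of the thallus and gemma cup (3 of 3 detected) summed to 91.9 to 94.1 CPM in Mpb-gata1-2, 79.3 to 81.7 CPM in Mpb-gata1-1 and 56.9 to 73.3 CPM in BoGa. Of these GCAM1 averaged 26.2 CPM in Mpb-gata1-2, 15.8 CPM in Mpb-gata1-1 and 5.14 CPM in BoGa, whereas CLE2 averaged 16.2 CPM in Mpb-gata1-2, 17.6 CPM in Mpb-gata1-1 and 20.8 CPM in BoGa. Rhizoid markers (2 of 2) summed to 29.5 to 34.5 CPM in Mpb-gata1-2, 31.9 to 38.9 CPM in Mpb-gata1-1 and 26.3 to 28.3 CPM in BoGa, and oil body cell markers (4 of 4) to 27.4 to 29.5 CPM in Mpb-gata1-2, 26.1 to 31.3 CPM in Mpb-gata1-1 and 23.4 to 29.5 CPM in BoGa. Of the 7 markers of sexual branches and gametes, 3 were found by symbol (RKD, DUO1 and PRM). They summed to 179 to 184 CPM in Mpb-gata1-2, 158 to 168 CPM in Mpb-gata1-1 and 194 to 202 CPM in BoGa, nearly all of it RKD. DUO1 had means of 2.32 CPM in Mpb-gata1-2, 2.39 CPM in Mpb-gata1-1 and 1.94 CPM in BoGa. PRM, the protamine gene of sperm, was nearly absent from all groups, at means of 0, 0.0154 and 0.0091 CPM in the same order. The part of these differences in the results below was not tested. The V level differed between the groups along with the allele, so V level and allele cannot be told apart here. The labels do not give the sex of the plants. In such bulk samples fewer cells of a type and less RNA per cell cannot be told apart.

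The 25 genes were weakly to moderately transcribed where they were transcribed. The means of the set had a median of 0.0645 CPM in Mpb-gata1-2 (range 0 to 1.04), 5.20 CPM in Mpb-gata1-1 (1.31 to 49.6) and 5.15 CPM in BoGa (1.10 to 66.3). Summed over the set, the means were 3.79 CPM in Mpb-gata1-2, 219.2 CPM in Mpb-gata1-1 and 219.1 CPM in BoGa. Per gene length, the authors' TPM had a median over the set of 0.127 in Mpb-gata1-2, 10.95 in Mpb-gata1-1 and 8.64 in BoGa, where the median of all 11869 genes was 24.4 TPM. In each of the 25 genes the highest Mpb-gata1-2 library was below the lowest of the other 6 libraries. No read was found in any Mpb-gata1-2 library for 7 of the genes, 3 had 1 to 3 reads over the 3 libraries, and 15 had more than 3 reads, with 11 having a read in every Mpb-gata1-2 library. Where a group had no read, 3 reads over its 3 libraries stand in as a floor and the fold is a lower bound; such bounds and the intervals cover counting error only.

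**Figure D1:**
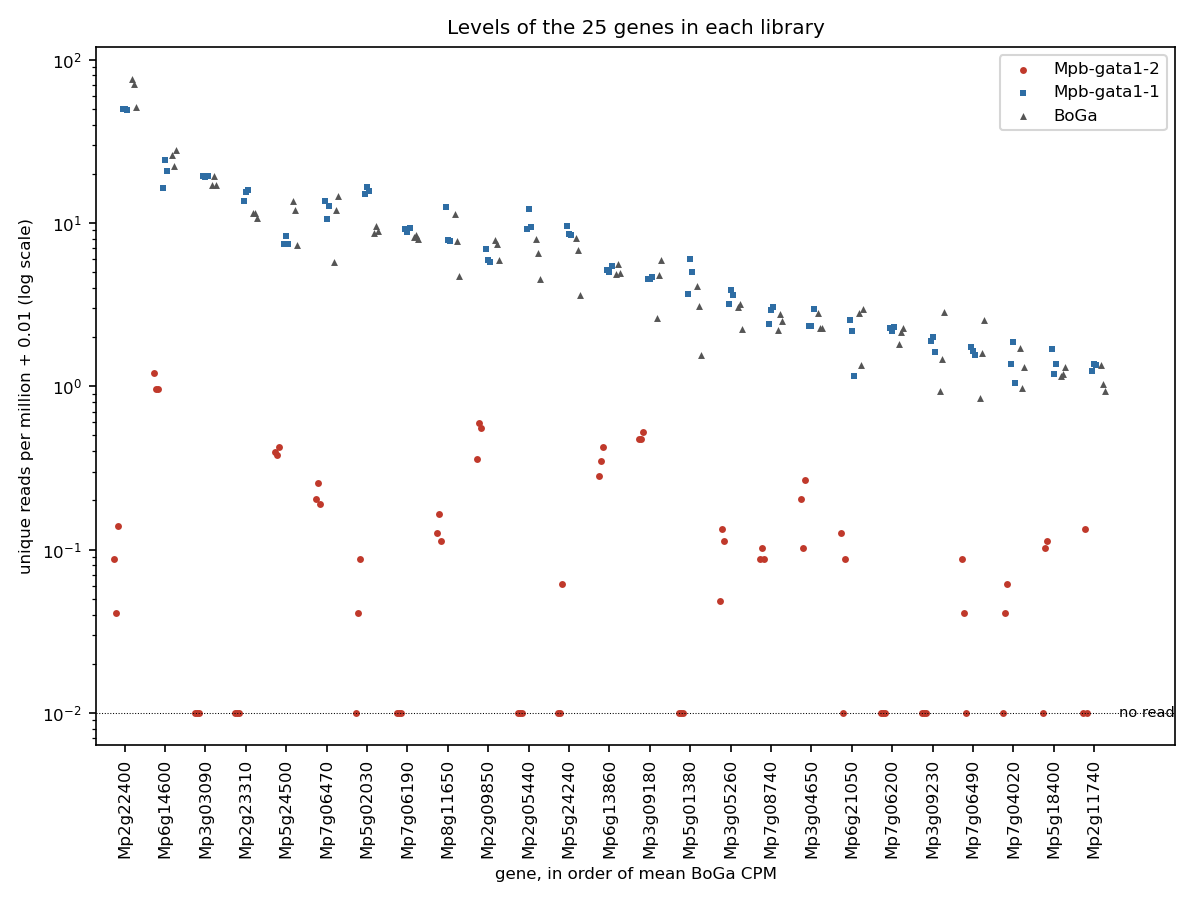
Level of each of the 25 genes in each of the 9 libraries, as CPM plus 0.01 on a log scale, with genes in order of their mean in BoGa and 1 point for each library. Points on the dotted line are libraries without a read, and in every gene the Mpb-gata1-2 points lie below all Mpb-gata1-1 and BoGa points.

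Along the chromosomes, 6 of the genes fell into 3 runs, defined as successive genes of the set with at most 10 other genes between them, and 19 stood alone. The runs were the pair Mp3g09180 and Mp3g09230 on chromosome 3, the adjacent pair Mp7g06190 and Mp7g06200, and the pair Mp7g06470 and Mp7g06490 on chromosome 7. Chromosome 7 held 6 of the genes among 1228 that met the criteria for Mpb-gata1-1 and BoGa, and chromosomes 2, 3 and 5 held 5 each, among 1640, 1624 and 1390. Chromosome 6 held 3 of 1290 and chromosome 8 held 1 of 1089. None lay on chromosome 1 or chromosome 4, where 2133 and 1475 genes met those criteria. Outside the runs the closest genes of the set were Mp5g24240 and Mp5g24500, 377126 bp apart.

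**Figure D2:**
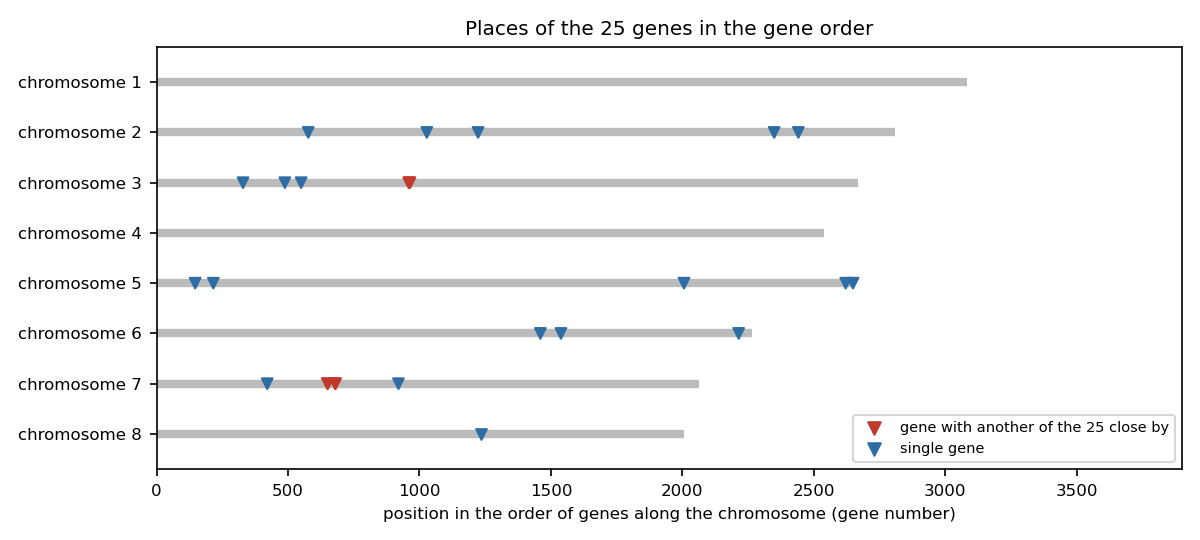
Place of the 25 genes in the order of all genes along each chromosome (x axis, gene number from 1 at the start of the chromosome), with grey bars for chromosomes 1 to 8. Red triangles are the 6 genes in the 3 runs, whose 3 pairs overlap at this scale, and blue triangles are the 19 single genes; chromosomes 1 and 4 have none.

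The most complete loss in a run was that of the adjacent pair Mp7g06190 (chromosome 7, 7283102 to 7285425) and Mp7g06200 (7285538 to 7285924), which lie 112 bp apart on the minus strand. Mp7g06190 had 0 reads in the 3 Mpb-gata1-2 libraries, against 9.23, 8.79 and 9.27 CPM in Mpb-gata1-1 and 8.23, 8.48 and 7.96 CPM in BoGa. Mp7g06200, the shortest gene of the set at 387 bp, had 0 reads in Mpb-gata1-2, against 2.26, 2.18 and 2.31 CPM in Mpb-gata1-1 and 1.80, 2.15 and 2.26 CPM in BoGa. Both were thus absent from all Mpb-gata1-2 libraries and nearly level in the other 6. Against the floor, Mp7g06190 was at least 294-fold below Mpb-gata1-1 and at least 265-fold below BoGa, and Mp7g06200 at least 72.8-fold below Mpb-gata1-1 and at least 67.1-fold below BoGa. The genes on either side did not share this: Mp7g06180 averaged 1.39 CPM in Mpb-gata1-2, 1.16 CPM in Mpb-gata1-1 and 1.23 CPM in BoGa, and Mp7g06210 averaged 94.5 CPM in Mpb-gata1-2, 78.5 CPM in Mpb-gata1-1 and 87.7 CPM in BoGa. The difference between Mpb-gata1-2 and BoGa was 0.14 ± 0.19 (log2, SE) for Mp7g06180 (edgeR quasi-likelihood test, Benjamini-Hochberg adjusted p = 0.557) and 0.07 ± 0.11 for Mp7g06210 (adjusted p = 0.612), so neither passed.

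The pair Mp7g06470 (chromosome 7, 7584139 to 7584867, minus strand) and Mp7g06490 (7605295 to 7606884, minus strand) is separated by 20427 bp and 1 gene, Mp7g06480. Mp7g06470 stood at 0.193, 0.247 and 0.181 CPM in Mpb-gata1-2, against 13.6, 10.6 and 12.6 CPM in Mpb-gata1-1 and 5.75, 12.03 and 14.6 CPM in BoGa. Mp7g06490 had 0.0772, 0.0309 and 0 CPM in Mpb-gata1-2, against 1.72, 1.64 and 1.54 CPM in Mpb-gata1-1 and 0.838, 1.59 and 2.54 CPM in BoGa. In both genes BoGa replicate 1 was the lowest and replicate 3 the highest of the BoGa libraries, and the Mpb-gata1-1 libraries lay closer together. Mp7g06470 was 59.3-fold lower in Mpb-gata1-2 than in Mpb-gata1-1 and 52.2-fold lower than in BoGa. Mp7g06490, with 3 reads in Mpb-gata1-2, was 52.3-fold lower than in Mpb-gata1-1 (exact 95% interval 17.6 to 256) and 54.4-fold lower than in BoGa (18.3 to 266). The gene between them had another order. Mp7g06480 stood at 0.0772, 0 and 0.0517 CPM in Mpb-gata1-2, against 6.57, 5.43 and 5.93 CPM in Mpb-gata1-1 and 0.1198, 0.249 and 0.409 CPM in BoGa, so that BoGa was nearer the Mpb-gata1-2 level than that of Mpb-gata1-1. It was lower in Mpb-gata1-2 than in Mpb-gata1-1 by a log2 difference of -7.04 ± 0.42 (SE; edgeR adjusted p = 5.96e-07) and lower than in BoGa by -2.60 ± 0.68 (adjusted p = 0.00961). Its BoGa libraries had the same order as those of Mp7g06470 and Mp7g06490. The flanking gene Mp7g06460 averaged 2.83 CPM in Mpb-gata1-2, 6.50 CPM in Mpb-gata1-1 and 4.43 CPM in BoGa, and Mp7g06500 averaged 2.29 CPM in Mpb-gata1-2, 2.74 CPM in Mpb-gata1-1 and 2.72 CPM in BoGa.

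On chromosome 3, Mp3g09180 (9062743 to 9067311, minus strand) and Mp3g09230 (9136774 to 9139134, minus strand) are 69462 bp apart with 4 genes between them. Mp3g09180 stood at 0.463, 0.463 and 0.517 CPM in Mpb-gata1-2, against 4.55, 4.55 and 4.68 CPM in Mpb-gata1-1 and 2.60, 4.80 and 5.89 CPM in BoGa. Mp3g09230 had 0 reads in Mpb-gata1-2, against 1.89, 2.00 and 1.61 CPM in Mpb-gata1-1 and 0.928, 1.46 and 2.84 CPM in BoGa. Both have many reads shared with other genes, which makes their values less certain: 43.4% of the reads of Mp3g09180 and 24.3% of those of Mp3g09230 were unique. With shared reads, Mp3g09180 averaged 1.80 CPM in Mpb-gata1-2, 9.60 CPM in Mpb-gata1-1 and 10.1 CPM in BoGa, or 18.7% of the lower of these, and so no longer met the rule. Mp3g09230 averaged 0.0946 CPM in Mpb-gata1-2, 8.34 CPM in Mpb-gata1-1 and 6.04 CPM in BoGa with shared reads. On unique reads, Mp3g09180 was 9.55-fold lower in Mpb-gata1-2 than in Mpb-gata1-1 and 9.21-fold lower than in BoGa, and Mp3g09230 was at least 58.4-fold below Mpb-gata1-1 and at least 57.6-fold below BoGa.

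Genes around this chromosome 3 pair differed between the lines in both directions. Between the pair, Mp3g09190 was also low in Mpb-gata1-2, at 3.51, 4.14 and 4.08 CPM, against 17.1, 16.7 and 17.8 CPM in Mpb-gata1-1 and 13.2, 15.7 and 19.5 CPM in BoGa, and 93.5% of its reads were unique. The log2 difference of Mp3g09190 was -2.12 ± 0.14 from Mpb-gata1-1 (SE; edgeR adjusted p = 1.65e-06) and -2.08 ± 0.14 from BoGa (adjusted p = 1.78e-06). Several others, named here after their values were seen, were instead lowest in Mpb-gata1-1. Mp3g09160, the second gene before Mp3g09180, stood at 21.5, 23.5 and 20.8 CPM in Mpb-gata1-2, against 0.0821, 0 and 0.0461 CPM in Mpb-gata1-1 and 13.7, 10.6 and 6.65 CPM in BoGa. It was nearly absent from Mpb-gata1-1 alone, lower there than in BoGa by -7.93 ± 0.48 (log2, SE; edgeR adjusted p = 1.64e-06). Mp3g09210, between the pair and with 67.5% unique reads, averaged 5.17 CPM in Mpb-gata1-2, 0.792 CPM in Mpb-gata1-1 and 3.99 CPM in BoGa, a log2 difference of Mpb-gata1-1 from BoGa of -2.39 ± 0.19 (edgeR adjusted p = 5.63e-06). MpNBS-LRR5 (Mp3g09150), from the family of nucleotide-binding leucine-rich repeat genes known in flowering plants for pathogen recognition, averaged 3.24 CPM in Mpb-gata1-2, 0.957 CPM in Mpb-gata1-1 and 2.56 CPM in BoGa, with 84.4% unique reads. Its log2 difference between Mpb-gata1-1 and BoGa was -1.46 ± 0.17 (edgeR adjusted p = 7.43e-05). On the far side of the pair, MpNPF9 (Mp3g09240), from a family of nitrate and peptide transporters, averaged 10.8 CPM in Mpb-gata1-2, 15.0 CPM in Mpb-gata1-1 and 37.9 CPM in BoGa, and was lower in Mpb-gata1-2 than in BoGa by -1.85 ± 0.15 (edgeR adjusted p = 8.89e-06).

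**Figure D3:**
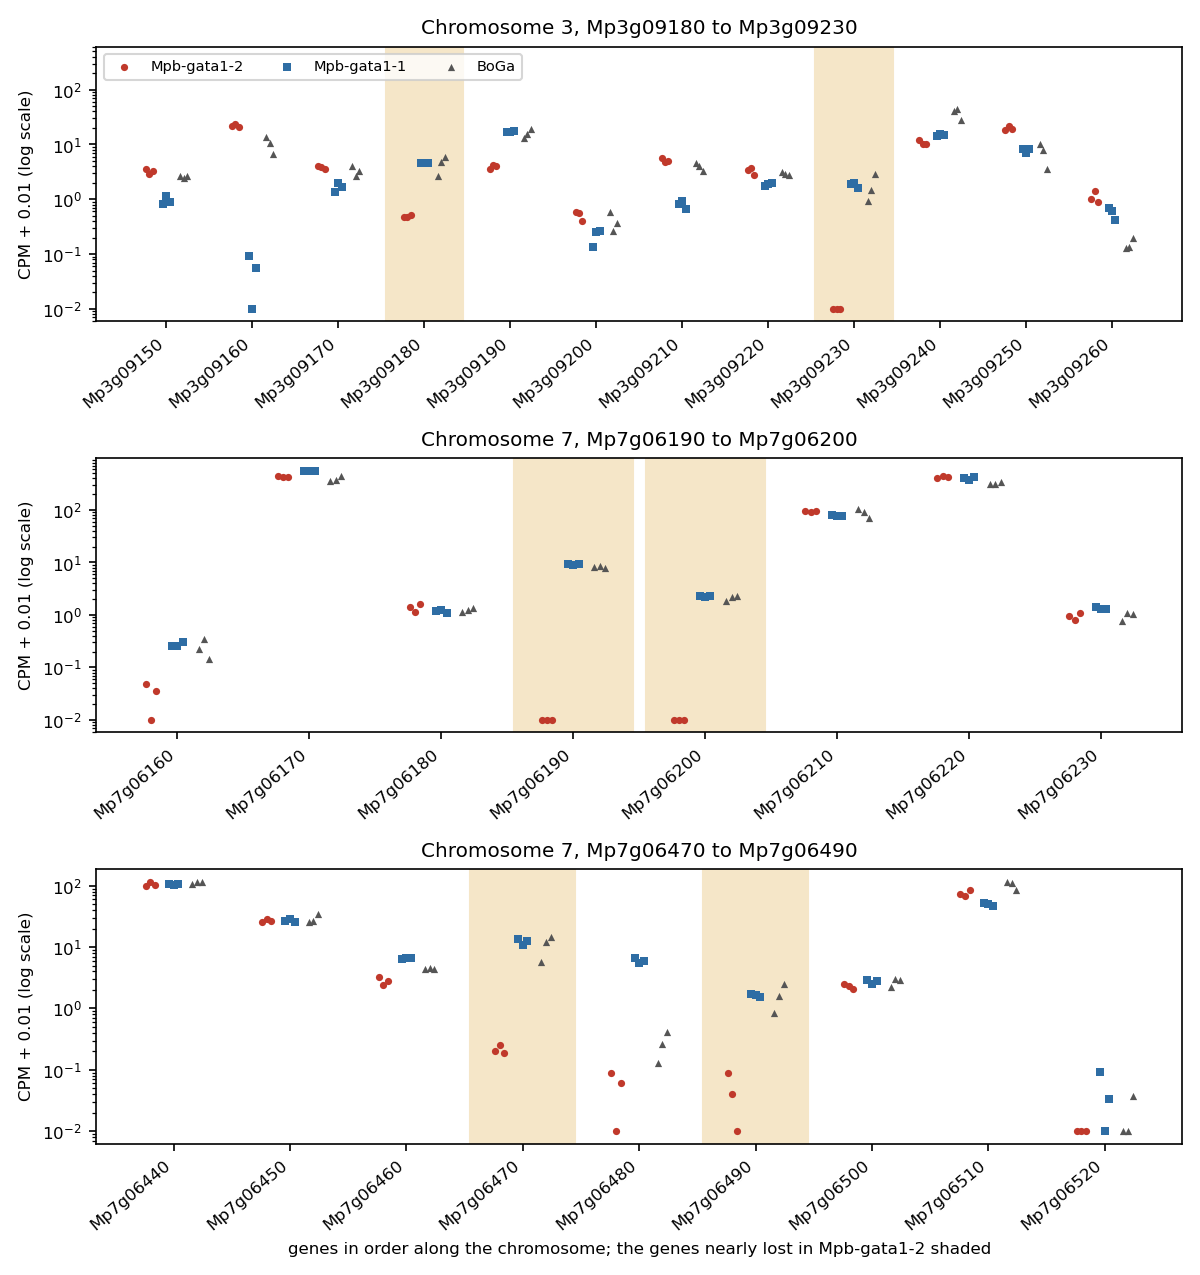
Levels of the genes in the 3 runs (shaded) and of their neighbours in order along the chromosome, as CPM plus 0.01 on a log scale, with 1 point for each library. In the top panel Mp3g09160 is nearly absent from Mpb-gata1-1 while Mp3g09180 and Mp3g09230 are low in Mpb-gata1-2, and in the bottom panel Mp7g06480 is low in BoGa as well.

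Among the single genes, 4 had no read in Mpb-gata1-2. Mp3g03090 (chromosome 3, 2834947 to 2837832, minus strand) had 0 reads in Mpb-gata1-2, against 19.5, 19.2 and 19.4 CPM in Mpb-gata1-1 and 17.1, 19.4 and 17.2 CPM in BoGa. With 1948 reads in Mpb-gata1-1 and 1823 in BoGa it gave the highest bounds of the set, at least 625-fold below Mpb-gata1-1 and at least 577-fold below BoGa. Mp2g23310 (chromosome 2, 25346893 to 25349057, plus strand) had 0 reads in Mpb-gata1-2, against 13.5, 15.5 and 15.9 CPM in Mpb-gata1-1 and 11.6, 11.5 and 10.7 CPM in BoGa. It was at least 491-fold below Mpb-gata1-1 and at least 363-fold below BoGa. It overlaps Mp2g23320 and 66.6% of its reads were unique, and its shared reads followed the same order, with 0 in Mpb-gata1-2, 771 in Mpb-gata1-1 and 572 in BoGa.

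Mp2g05440 (chromosome 2, 5651448 to 5652137, minus strand) had 0 reads in Mpb-gata1-2, against 9.15, 12.1 and 9.50 CPM in Mpb-gata1-1 and 7.93, 6.54 and 4.53 CPM in BoGa, where replicate 3 was the lowest. It was at least 332-fold below Mpb-gata1-1 and at least 203-fold below BoGa. The gene before it, MpCupin35 (Mp2g05430; 86.6% unique reads), was low in the other mutant, with 11.01, 10.4 and 9.61 CPM in Mpb-gata1-2, against 0.451, 0.455 and 0.461 CPM in Mpb-gata1-1 and 7.78, 5.02 and 4.80 CPM in BoGa. This gene was named after its values were seen. It was higher in Mpb-gata1-2 than in Mpb-gata1-1 by a log2 difference of 4.50 ± 0.23 (SE; edgeR adjusted p = 1.97e-07) and lower in Mpb-gata1-1 than in BoGa by -3.72 ± 0.23 (adjusted p = 1.28e-06). The next gene before, Mp2g05420, was below the 1 CPM limit of the rule and had 0 reads in Mpb-gata1-2, against 0.821, 1.36 and 0.692 CPM in Mpb-gata1-1 and 0.898, 0.623 and 0.409 CPM in BoGa. Mp2g05420 was at least 30.5-fold lower in Mpb-gata1-2 than in Mpb-gata1-1 (edgeR adjusted p = 0.00031) and at least 20.6-fold lower than in BoGa (adjusted p = 0.000477). On the other side, MpCupin36 (Mp2g05450), 2222 bp away, was expressed in all groups at means of 7.66 CPM in Mpb-gata1-2, 11.2 CPM in Mpb-gata1-1 and 6.80 CPM in BoGa. MpCupin36 was lower in Mpb-gata1-2 than in Mpb-gata1-1 by -0.53 ± 0.11 (log2, SE; edgeR adjusted p = 0.00468).

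Mp5g01380 (chromosome 5, 2006088 to 2007918, plus strand) had 0 reads in Mpb-gata1-2, against 3.65, 6.002 and 5.003 CPM in Mpb-gata1-1 and 4.07, 3.09 and 1.55 CPM in BoGa. It was at least 162-fold below Mpb-gata1-1 and at least 92.4-fold below BoGa. Its BoGa libraries differed 2.62-fold between the highest and the lowest, and without BoGa replicate 1 its Mpb-gata1-1 and BoGa means were no longer within 2-fold.

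Some single genes had a few reads in Mpb-gata1-2 and high levels elsewhere. Mp2g22400 (chromosome 2, 24533599 to 24534830, minus strand) was the most highly expressed gene of the set. It stood at 0.0772, 0.0309 and 0.129 CPM in Mpb-gata1-2, which is 8 reads in all, at 49.8, 49.7 and 49.3 CPM in Mpb-gata1-1, and at 76.4, 71.0 and 51.4 CPM in BoGa. The Mpb-gata1-1 libraries differed by 1.01-fold, and the gene was 627-fold lower in Mpb-gata1-2 than in Mpb-gata1-1 and 838-fold lower than in BoGa. Mp5g02030 (chromosome 5, 2618724 to 2621498, plus strand) stood at 0, 0.0309 and 0.0775 CPM in Mpb-gata1-2, against 15.0, 16.6 and 15.6 CPM in Mpb-gata1-1 and 8.62, 9.57 and 8.94 CPM in BoGa, and was 435-fold below Mpb-gata1-1 and 250.3-fold below BoGa. Mp5g24240 (chromosome 5, 26290613 to 26292751, minus strand) had 2 reads in Mpb-gata1-2, both in replicate 3 (0.0517 CPM), against 9.52, 8.55 and 8.46 CPM in Mpb-gata1-1 and 8.02, 6.79 and 3.63 CPM in BoGa. Its ratio was 424-fold to Mpb-gata1-1 (exact 95% interval 117 to 3507) and 294-fold to BoGa (81.0 to 2431).

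The genes with the highest remaining levels in Mpb-gata1-2 included the longest. Mp6g14600 (chromosome 6, 15920098 to 15927346, minus strand) kept 1.20, 0.958 and 0.956 CPM in Mpb-gata1-2, against 16.3, 24.2 and 20.8 CPM in Mpb-gata1-1 and 26.1, 22.3 and 28.0 CPM in BoGa, and was 19.8-fold below Mpb-gata1-1 and 24.6-fold below BoGa. Mp2g09850 (chromosome 2, 10157632 to 10165459, minus strand), at 7828 bp the longest, kept 0.348, 0.587 and 0.543 CPM in Mpb-gata1-2, against 6.93, 5.88 and 5.76 CPM in Mpb-gata1-1 and 7.81, 7.45 and 5.94 CPM in BoGa. Reads were present in every Mpb-gata1-2 library of both. Mp5g24500 (chromosome 5, 26669878 to 26671088, minus strand) stood at 0.386, 0.371 and 0.413 CPM in Mpb-gata1-2, against 7.39, 8.34 and 7.47 CPM in Mpb-gata1-1 and 13.6, 11.9 and 7.33 CPM in BoGa. Mp6g13860 (chromosome 6, 15207168 to 15209642, minus strand) stood at 0.270, 0.340 and 0.413 CPM in Mpb-gata1-2, against 5.17, 5.001 and 5.42 CPM in Mpb-gata1-1 and 4.88, 5.61 and 4.96 CPM in BoGa. The levels of Mp6g13860 in the last 2 groups overlapped, while BoGa replicate 3 of Mp5g24500 was below the other two and just under the Mpb-gata1-1 libraries. Mp8g11650 (chromosome 8, 13155412 to 13158016, plus strand) kept less than these genes, at 0.116, 0.154 and 0.103 CPM in Mpb-gata1-2. It stood at 12.5, 7.82 and 7.72 CPM in Mpb-gata1-1 and 11.3, 7.73 and 4.74 CPM in BoGa. In Mpb-gata1-2 it was 75.0-fold below Mpb-gata1-1 and 63.7-fold below BoGa. In both Mpb-gata1-1 and BoGa replicate 1 was the highest.

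The named genes were among the weakest of the set. MpCupin98 (chromosome 6, 23298287 to 23299816, minus strand) stood at 0.116, 0 and 0.0775 CPM in Mpb-gata1-2, against 2.54, 2.18 and 1.15 CPM in Mpb-gata1-1 and 2.81, 1.34 and 2.94 CPM in BoGa. It was 30.4-fold below Mpb-gata1-1 and 36.7-fold below BoGa, and both other groups varied more than 2-fold among their libraries. MpDIR29 (chromosome 5, 19462716 to 19463815, minus strand) stood at 0, 0.0927 and 0.103 CPM in Mpb-gata1-2, against 1.68, 1.18 and 1.36 CPM in Mpb-gata1-1 and 1.14, 1.18 and 1.31 CPM in BoGa. It was 21.6-fold below Mpb-gata1-1 and 18.5-fold below BoGa, from 139 reads in Mpb-gata1-1 and 124 in BoGa.

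The remaining single genes were all under 4 CPM on average. Mp3g05260 (chromosome 3, 5090400 to 5091336, plus strand) stood at 0.0386, 0.124 and 0.103 CPM in Mpb-gata1-2, against 3.201, 3.88 and 3.597 CPM in Mpb-gata1-1 and 3.05, 3.18 and 2.24 CPM in BoGa. Mp3g04650 (chromosome 3, 4528665 to 4529884, plus strand) stood at 0.193, 0.0927 and 0.258 CPM in Mpb-gata1-2, against 2.34, 2.33 and 2.95 CPM in Mpb-gata1-1 and 2.78, 2.28 and 2.26 CPM in BoGa. They lie 560515 bp apart, and Mp3g05260 was the lower in Mpb-gata1-2, at 40.2-fold below Mpb-gata1-1 and 31.9-fold below BoGa, against 14.0-fold and 13.5-fold for Mp3g04650. Mp7g08740 (chromosome 7, 9879386 to 9882831, minus strand) stood at 0.0772, 0.0927 and 0.0775 CPM in Mpb-gata1-2, against 2.38, 2.94 and 3.04 CPM in Mpb-gata1-1 and 2.22, 2.77 and 2.51 CPM in BoGa. Mp7g04020 (chromosome 7, 4955519 to 4956256, plus strand) had 3 reads in Mpb-gata1-2 (0, 0.0309 and 0.0517 CPM), 1.35, 1.85 and 1.04 CPM in Mpb-gata1-1, and 1.71, 0.966 and 1.31 CPM in BoGa, a ratio of 44.6 to Mpb-gata1-1 (exact 95% interval 15.0 to 219) and of 43.0 to BoGa (14.4 to 211). Mp2g11740 (chromosome 2, 11957228 to 11959464, plus strand) had all of its 4 Mpb-gata1-2 reads in replicate 2 (0.124 CPM), against 1.23, 1.36 and 1.34 CPM in Mpb-gata1-1 and 1.35, 1.03 and 0.927 CPM in BoGa. The last of these is near the lower limit of the rule, and without BoGa replicate 1 its BoGa mean fell under 1 CPM.

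In the fit over all 14360 tested genes (edgeR, adjusted p under 0.05), all 25 were lower in Mpb-gata1-2 than in BoGa, where 46.9% of all tested genes were called and 24.8% were lower. All 25 were also lower than in Mpb-gata1-1, where 31.2% of all tested genes were called and 16.1% were lower. The rule used these contrasts, so nothing is read from the counts. The median fitted log2 difference of the 25 was -5.62 from BoGa and -5.54 from Mpb-gata1-1, and the medians of all tested genes were -0.02 and 0.00. Between Mpb-gata1-1 and BoGa, a contrast that the rule held within 2-fold, 3 of the 25 were higher (23.3% of all tested genes), 3 were lower (23.2%, with 46.5% called in either direction) and 19 did not pass. Mp5g02030 was higher in Mpb-gata1-1 by 0.75 ± 0.11 (log2, SE), and this call held in each of 16 alternatives. The other 5 calls were small and each was lost on leaving out at least 1 library. Mp2g22400 (-0.47 ± 0.13) was no longer called without BoGa replicate 2 (-0.40) and Mp2g23310 (0.37 ± 0.10) without Mpb-gata1-1 replicate 3 (0.32). Mp2g05440 (0.65 ± 0.20) was lost without any of 3 libraries, Mp5g24500 (-0.55 ± 0.19) without any of 5 and Mp6g14600 (-0.36 ± 0.13) without any of 7. Without BoGa replicate 1, Mp5g01380 (1.04) and Mp5g24240 (0.71) were called higher in Mpb-gata1-1. The 3 contrasts share libraries.

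Where Mpb-gata1-2 had few reads, the fitted log2 difference depended on single libraries of that group, and all values below stayed lower in Mpb-gata1-2. Mp2g11740 differed from BoGa by -4.65, and by -3.98 without Mpb-gata1-2 replicate 3. Replicate 2 held all of its 4 Mpb-gata1-2 reads, so without that library it has no finite fold and no value is given. Mp7g06490 differed from BoGa by -5.62, by -6.59 without replicate 1 and by -4.95 without replicate 3. For 4 other genes it was replicate 3 that moved the fitted difference from BoGa by over 1.5 times. Without it Mp5g02030 stood at -8.79 against -7.69 with it, Mp7g04020 at -6.03 against -5.30 and Mp2g22400 at -10.27 against -9.62. The other, Mp5g24240 (-8.01 with replicate 3), had no Mpb-gata1-2 read left without that library and so no finite fold.

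At the edge of the rule, the highest Mpb-gata1-2 means as a percentage of the lower other group were 10.9% for Mp3g09180, 7.95% for Mp2g09850, 7.43% for Mp3g04650, 6.62% for Mp6g13860 and 5.40% for MpDIR29. Just outside were Mp2g06930 at 12.8%, Mp6g18120 at 12.9%, Mp4g04460 at 13.9%, Mp8g12170 at 14.0% and Mp5g11780 at 14.7%. The same rule with the lines exchanged gave 17 genes of 11784 that were nearly lost in Mpb-gata1-1 alone and 71 of 11883 in BoGa alone. No listed gene was left out of these counts, so the like count for Mpb-gata1-2 is 29. As BoGa is the wild type, the 71 genes are equally genes over 8-fold higher in both mutants than in BoGa. Near loss in a single mutant was thus found for both mutants.

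Reads shared between genes, which the rule left out, added other genes with the same pattern. On total gene reads 30 genes met the rule, 24 of the 25 and 6 others, whose CPM are here per 1000000 total gene reads. Mp1g19010, on chromosome 1, had only shared reads and stood at 0 reads in Mpb-gata1-2, against 51.3, 42.0 and 49.6 CPM in Mpb-gata1-1 and 49.5, 52.9 and 58.8 CPM in BoGa. It was at least 1563-fold below Mpb-gata1-1 and at least 1772-fold below BoGa, on reads that cannot be assigned to it alone. Mp2g23320, which overlaps Mp2g23310, had 0 reads in Mpb-gata1-2 and averaged 4.64 CPM in Mpb-gata1-1 and 4.66 CPM in BoGa. Mp3g03070 (2828554 to 2833730) and Mp3g03080 (2828555 to 2833730) cover nearly the same positions on the minus strand and directly precede Mp3g03090. Mp3g03070 averaged 0.428 CPM in Mpb-gata1-2, 5.70 CPM in Mpb-gata1-1 and 6.58 CPM in BoGa, and Mp3g03080 averaged 0.318 CPM in Mpb-gata1-2, 5.61 CPM in Mpb-gata1-1 and 3.64 CPM in BoGa, where replicate 2 stood at 0.306 CPM and so below 2 of the Mpb-gata1-2 libraries. With shared reads counted, the place before Mp3g03090 was thus also low in Mpb-gata1-2. Mp3g03070 and Mp3g03080 have almost no unique reads, so they cannot be told apart here and are not separate observations. Mp3g04460 averaged 0.0844 CPM in Mpb-gata1-2, 2.30 CPM in Mpb-gata1-1 and 1.61 CPM in BoGa, with 55.3% unique reads. Mp5g14840, with no unique read, had 0 reads in Mpb-gata1-2, against 1.85, 0 and 2.04 CPM in Mpb-gata1-1 and 0, 3.06 and 0 CPM in BoGa, so it was absent from 3 of the other 6 libraries as well.

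Length, strand and name did not enter the rule and are given as a description. The 25 genes had a median length of 2139 bp (387 to 7828 bp), against 3941 bp for the 11869 genes. Of the 25, 17 (68.0%) were on the minus strand, against 50.4%. A name was present for 2 (8.0%), against 18.9%. Unique reads made up at least 90% of all reads in 22 genes, the exceptions being Mp3g09180, Mp3g09230 and Mp2g23310. The rule counted unique reads only, so genes with few of them could hardly enter. The like share over the 11869 genes is not given, and nothing is read from this count.

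The rule set no limit on the spread among libraries of a group, but it took its means from these same libraries. Membership of some genes depended on a single BoGa library, so the shares of spread below are a description. The 25 genes also had lower levels, with a median BoGa mean of 5.15 CPM against 34.4 CPM over the 11869 genes. In BoGa, 11 of the 25 genes (44.0%) differed at least 1.5-fold between the highest and the lowest library, against 7.83% of 11840 other genes that met the criteria for Mpb-gata1-1 and BoGa and were not low in Mpb-gata1-2. At least 2-fold spread was found in 8 of the 25 (32.0%), against 1.23%. Among genes under 20 CPM the 1.5-fold spread was found in 11 of 23 (47.8%), against 13.9% of 4135. This limit was set after the values were seen, and levels below it were not matched. In Mpb-gata1-1 the 1.5-fold spread was found in 4 of the 25 (16.0%), against 3.34%, and under 20 CPM in 17.4%, against 8.68%. The count in BoGa came to 7 without replicate 1 and to 6 without replicate 3.

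**Figure D4:**
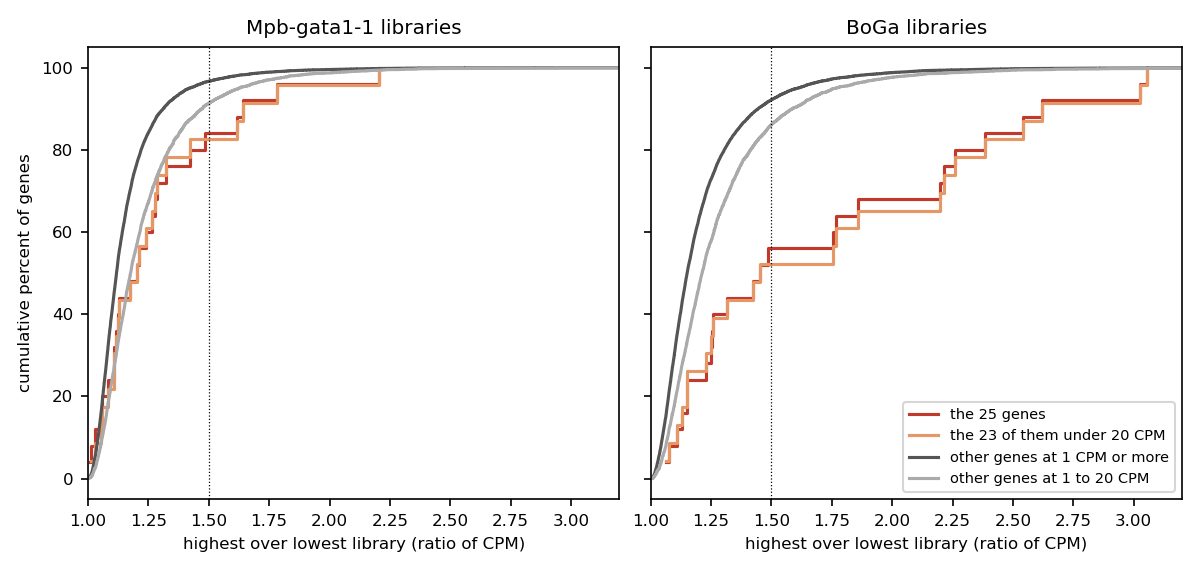
Cumulative percentage of genes by the ratio of the highest to the lowest library within Mpb-gata1-1 (left) and within BoGa (right). Lines are the 25 genes, the 23 of them under 20 CPM, and the other genes within the same limits, whose levels were not matched. The dotted line marks 1.5-fold; 44.0% of the 25 genes lie at or beyond it in BoGa and 16.0% in Mpb-gata1-1.

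The 11 genes with this spread in BoGa did not share 1 order of the libraries. Mp2g05440, Mp5g01380, Mp5g24240, Mp5g24500 and Mp8g11650 were highest in replicate 1 and lowest in replicate 3. Mp3g09180, Mp3g09230, Mp7g06470 and Mp7g06490 were highest in replicate 3 and lowest in replicate 1, by 2.26-fold, 3.05-fold, 2.54-fold and 3.02-fold. These 4 are all of the genes of the chromosome 3 run and of 1 chromosome 7 run. The V level of the BoGa libraries, 0.359, 0.515 and 0.665 in replicates 1, 2 and 3, has the order of these 4 and the reverse of the 5 genes above. Across the lines the V level was highest in Mpb-gata1-2. The rule chose these 4 genes for being low in that group, so nothing is read from a comparison across the lines. MpCupin98 was highest in replicate 3 and lowest in replicate 2, and Mp7g04020 was highest in replicate 1 and lowest in replicate 2. Whether the differences between the BoGa libraries have a part in these values was not tested.

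The genes next to the 25 were taken by position alone, as the genes inside a run and the 3 nearest genes on each side, which gave 137 genes, 93 of them tested. Leaving out the 25 themselves removes the largest falls by design. Between Mpb-gata1-2 and BoGa 30 of the 93 were lower, 20 higher and 43 did not pass (edgeR, adjusted p under 0.05), where 24.8% of all tested genes were lower and 22.1% higher. At least 2-fold lower were 15 (16.1%), against 5.03% of all tested genes, and at least 2-fold higher were 6 (6.45%), against 3.52%. Between Mpb-gata1-2 and Mpb-gata1-1 28 were lower and 19 higher (16.1% and 15.2% of all tested genes), with 13 at least 2-fold lower (14.0%, against 3.53%) and 11 at least 2-fold higher (11.8%, against 3.66%). Between Mpb-gata1-1 and BoGa 22 were lower and 21 higher (23.2% and 23.3%), with 11 at least 2-fold lower (11.8%, against 4.92%) and 3 at least 2-fold higher (3.23%, against 3.18%). The 2-fold counts were added after values had been seen. The median log2 difference between Mpb-gata1-2 and BoGa was -0.10 over the 93, against -0.02 over all tested genes.

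Of the 12 neighbours with the largest called differences between Mpb-gata1-2 and BoGa, 9 were lower and 3 higher. Beside Mp5g02030 lie Mp5g02010, Mp5g02040 and Mp5g02050. Mp5g02010 averaged 8.38 CPM in Mpb-gata1-2, 14.7 CPM in Mpb-gata1-1 and 26.7 CPM in BoGa, and was lower in Mpb-gata1-2 than in BoGa by -1.71 ± 0.13 (log2, SE; edgeR adjusted p = 5.06e-06). Mp5g02040 averaged 0.474 CPM in Mpb-gata1-2, 0.849 CPM in Mpb-gata1-1 and 2.79 CPM in BoGa (-2.66 ± 0.39, edgeR adjusted p = 0.000364), and Mp5g02050, with 23.8% unique reads, averaged 0.316 CPM in Mpb-gata1-2, 0.284 CPM in Mpb-gata1-1 and 0.886 CPM in BoGa (-1.54 ± 0.35, adjusted p = 0.00427). All of these were below BoGa in Mpb-gata1-1 as well, with log2 differences of -0.90, -1.73 and -1.67. MpGST30 (Mp2g22410), named as a glutathione S-transferase gene and next to Mp2g22400, averaged 12.3 CPM in Mpb-gata1-2, 20.4 CPM in Mpb-gata1-1 and 39.0 CPM in BoGa (-1.70 ± 0.17, edgeR adjusted p = 3.45e-05), with 15.6% unique reads. Mp3g05280, near Mp3g05260, averaged 0.156 CPM in Mpb-gata1-2, 0.422 CPM in Mpb-gata1-1 and 0.506 CPM in BoGa (-1.63 ± 0.43, edgeR adjusted p = 0.00978).

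Of these 12, the 3 that were higher in Mpb-gata1-2 than in BoGa were Mp3g09260, Mp8g11640 and MpRLK-Pelle_L-LEC15 (Mp5g01350), the last of a receptor-like kinase family. Mp3g09260 averaged 1.09 CPM in Mpb-gata1-2, 0.573 CPM in Mpb-gata1-1 and 0.145 CPM in BoGa (2.82 ± 0.34, log2, SE; edgeR adjusted p = 9.11e-05). Mp8g11640, next to Mp8g11650, averaged 4.58 CPM in Mpb-gata1-2, 1.80 CPM in Mpb-gata1-1 and 0.930 CPM in BoGa (2.26 ± 0.25, edgeR adjusted p = 5.29e-05). MpRLK-Pelle_L-LEC15 averaged 0.760 CPM in Mpb-gata1-2, 0.0957 CPM in Mpb-gata1-1 and 0.244 CPM in BoGa (1.61 ± 0.39, edgeR adjusted p = 0.00608).

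Around Mp2g23310 and Mp7g04020, chosen after the values were seen, a gene on each side had a fitted level at least 2-fold lower in Mpb-gata1-2 than in both others. For Mp7g04030 this was at the limit, with a log2 difference from BoGa of -1.04 to -0.97 over the alternatives. Around Mp2g23310, Mp2g23290 averaged 9.37 CPM in Mpb-gata1-2, 19.9 CPM in Mpb-gata1-1 and 20.7 CPM in BoGa, and Mp2g23330 averaged 10.3 CPM in Mpb-gata1-2, 29.4 CPM in Mpb-gata1-1 and 26.4 CPM in BoGa. The log2 differences from BoGa were -1.18 ± 0.07 (SE; edgeR adjusted p = 9.01e-07) for Mp2g23290 and -1.39 ± 0.08 (adjusted p = 4.97e-07) for Mp2g23330. Around Mp7g04020, Mp7g04000 averaged 7.82 CPM in Mpb-gata1-2, 19.8 CPM in Mpb-gata1-1 and 18.3 CPM in BoGa, and Mp7g04030 averaged 8.69 CPM in Mpb-gata1-2, 19.96 CPM in Mpb-gata1-1 and 17.0 CPM in BoGa. Their log2 differences from BoGa were -1.26 ± 0.12 (SE; edgeR adjusted p = 1.35e-05) and -1.01 ± 0.07 (adjusted p = 1.65e-06). From Mpb-gata1-1 the log2 differences were -1.07 for Mp2g23290, -1.50 for Mp2g23330, -1.32 for Mp7g04000 and -1.19 for Mp7g04030. Mp2g23300, which lies between Mp2g23290 and Mp2g23310, was lower in Mpb-gata1-2 than in BoGa by -0.98 ± 0.16 (log2, SE; edgeR adjusted p = 0.000739) and did not pass against Mpb-gata1-1 (-0.46 ± 0.17, adjusted p = 0.0586).

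The families of the named genes were followed through their other members on chromosomes 1 to 8, taken by name: 101 cupin genes, 61 of them tested, and 58 dirigent genes, 44 of them tested. Not among the 101 is MpCupin8 (Mp2g01550), a gene that the rule leaves out. MpCupin8 averaged 0 CPM in Mpb-gata1-2, 0.744 CPM in Mpb-gata1-1 and 1.44 CPM in BoGa. Between Mpb-gata1-2 and BoGa 27 of the 61 cupin genes were lower, 10 higher and 24 did not pass, with a median log2 difference of -0.64. Of the 44 dirigent genes 18 were lower, 12 higher and 14 did not pass, with a median of -0.24. The median of all tested genes was -0.02, and 24.8% of them were lower and 22.1% higher. Between Mpb-gata1-2 and Mpb-gata1-1 19 cupin genes were lower and 16 higher with a median of 0.00, and 10 dirigent genes were lower and 11 higher with a median of 0.06 (16.1% and 15.2% of all tested genes). Between Mpb-gata1-1 and BoGa 26 cupin genes were lower and 12 higher with a median of -0.21, and 15 dirigent genes were lower and 14 higher with a median of 0.10 (23.2% and 23.3% of all tested genes). The 3 contrasts share libraries.

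The relatives with the lowest p between Mpb-gata1-2 and BoGa were for the cupins all lower in Mpb-gata1-2. MpCupin6 (Mp2g01530; 54.0% unique reads) averaged 4.20 CPM in Mpb-gata1-2, 18.9 CPM in Mpb-gata1-1 and 18.1 CPM in BoGa (-2.15 ± 0.11, log2, SE; edgeR adjusted p = 3.15e-07). MpCupin10 (Mp2g01580; 72.2% unique reads) averaged 17.0 CPM in Mpb-gata1-2, 40.2 CPM in Mpb-gata1-1 and 37.2 CPM in BoGa (-1.16 ± 0.09, edgeR adjusted p = 3.45e-06), and MpCupin3 (Mp1g18470) averaged 5.75 CPM in Mpb-gata1-2, 23.04 CPM in Mpb-gata1-1 and 15.4 CPM in BoGa (-1.46 ± 0.12, adjusted p = 6.14e-06). Among the dirigent genes MpDIR24 (Mp2g22900) was higher, at 17.2 CPM in Mpb-gata1-2, 3.34 CPM in Mpb-gata1-1 and 4.19 CPM in BoGa (1.99 ± 0.18, edgeR adjusted p = 1.17e-05). MpDIR58 (Mp2g03460) was also higher, at 3.14 CPM in Mpb-gata1-2, 2.07 CPM in Mpb-gata1-1 and 0.471 CPM in BoGa (edgeR adjusted p = 0.000127), and MpDIR39 (Mp5g16510; 70.6% unique reads) was lower, at 1.17 CPM in Mpb-gata1-2, 1.56 CPM in Mpb-gata1-1 and 4.84 CPM in BoGa (-2.08 ± 0.26, edgeR adjusted p = 0.000113). None of these named relatives was nearly absent from Mpb-gata1-2.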

How the data were processed

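Per the labels' protocols, RNA was extracted from whole thallus plants and stranded libraries were prepared from mRNA. Per the file headers, each deposited table gives raw counts per gene (total and unique gene reads) and TPM computed by the authors over the whole gene region. Aligner, build, annotation and strand use were not given in the sources used here, and positions are those of the tables. The 25 genes and all lists were chosen with earlier results of these data known.

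The rule was applied to unique gene reads, so the test used them too. The analysis used edgeR 4.0.16 (R 4.3.3): filterByExpr by group (14360 genes tested, 6214 not), TMM scaling, and the robust quasi-likelihood test on all 9 libraries with a term for each group. The p-values were adjusted by Benjamini-Hochberg across all tested genes, with calls at an adjusted p under 0.05; the biological coefficient of variation was 8.71%. Libraries of a group differed by more than sampling noise.

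Locus numbers were looked up in a gene table of assembly MpTak2_v7.1 for names, in which 17641 of 20574 genes (85.7%) and 22 of the 25 matched; 81.4% of matched genes, and 15 of the 25, had a length within 20 bp. Every one of the 25 genes was named, then the 12 neighbours with the largest called differences between Mpb-gata1-2 and BoGa and the 3 relatives per family with the lowest p. Alternatives were total gene reads, RLE and upper-quartile factors, no filter, DESeq2 1.42.0, a replicate block, a fit of only the groups compared, leaving out each library, and other limits of the rule.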

Additional observations from a re-analysis of the deposited data

Results flagged for a closer look

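Of the 18 neighbours and relatives named by rule, 14 differed between the 2 mutants when the difference itself was tested (edgeR quasi-likelihood test, adjusted p under 0.05; 31.2% of all tested genes). The 18 had been picked for their difference from BoGa, and both contrasts use the same Mpb-gata1-2 libraries, so nothing is read from this count. The values are log2 differences of Mpb-gata1-2 from Mpb-gata1-1. Lower in Mpb-gata1-2 were the neighbours Mp2g05420 (-7.97), Mp7g06480 (-7.04), Mp3g09190 (-2.12), Mp3g05280 (-1.37), Mp5g02010 (-0.80), MpGST30 (Mp2g22410; -0.73) and MpNPF9 (Mp3g09240; -0.47). Mp2g05420 had 0 reads in Mpb-gata1-2 and so no finite fold, and its fitted -7.97 does not measure the size of the difference. Against the floor of 3 reads, Mp2g05420 was at least 30.5-fold lower in Mpb-gata1-2 than in Mpb-gata1-1. Higher in Mpb-gata1-2 were MpRLK-Pelle_L-LEC15 (Mp5g01350; 3.06), Mp8g11640 (1.38) and Mp3g09260 (0.98). Among the relatives, MpCupin6 (Mp2g01530; -2.17), MpCupin3 (Mp1g18470; -1.995) and MpCupin10 (Mp2g01580; -1.22) were lower and MpDIR24 (Mp2g22900; 2.36) was higher.

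Of these, 3 calls were lost under some of the 16 alternatives. Mp3g05280 (edgeR adjusted p = 0.0368) was lost in 6, with adjusted p-values of 0.0516 to 0.123, among them without Mpb-gata1-2 replicate 1 (-1.22) or 2 (-1.09) and without Mpb-gata1-1 replicate 2 (-1.34) or 3 (-1.25). MpNPF9 (Mp3g09240; edgeR adjusted p = 0.0427) was lost in 6, at 0.0515 to 0.131, among them without Mpb-gata1-2 replicate 2 (-0.42) or 3 (-0.43) and without Mpb-gata1-1 replicate 1 (-0.50), 2 (-0.44) or 3 (-0.47). Mp3g09260 (edgeR adjusted p = 0.0196) was lost in 3, at 0.0589 to 0.0942, among them without Mpb-gata1-2 replicate 2 (0.76) or Mpb-gata1-1 replicate 3 (0.76).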

How the results depend on the processing

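No called result changed direction under any alternative, but several values that did not pass changed sign, among them that of Mp7g06210 (Mpb-gata1-2 minus BoGa, log2 -0.06 to 0.19). The set held 50 genes with the looser Mpb-gata1-2 limit (under 1/4 of each other mean), 21 with the stricter limit (under 1/16), 30 on total gene reads, 25 on TMM-scaled CPM, 29 and 19 with minimum means of 0.5 and 2 CPM, and 24 to 27 on leaving out each library. Without BoGa replicate 1 it lost Mp2g11740 and Mp5g01380, and without BoGa replicate 3 it lost Mp3g09180. The runs held the same 6 genes with at most 5 or at most 20 genes allowed between them, but not under every limit of the rule. On total gene reads, under 1/16 and without BoGa replicate 3, Mp3g09180 was lost and with it the chromosome 3 run. With a minimum mean of 2 CPM, Mp3g09230 and Mp7g06490 were lost, and of the 3 runs only Mp7g06190 and Mp7g06200 remained. Other limits added genes close to single ones, which then formed runs. On total gene reads Mp2g23320 joined Mp2g23310, and Mp3g03070 and Mp3g03080 joined Mp3g03090, nearly all on reads shared between genes. With a minimum mean of 0.5 CPM, Mp2g05420 joined Mp2g05440, with MpCupin35 between them. The count of genes with a 1.5-fold spread in BoGa (11) was 6 to 9 on leaving out each BoGa library, where fewer libraries can only lower it. The neighbours lower and higher in Mpb-gata1-2 than in BoGa numbered 26 to 36 and 17 to 23 under the other settings, and 23 to 30 and 15 to 20 on leaving out each library; against Mpb-gata1-1 they numbered 24 to 31 and 19 to 21, and 23 to 31 and 16 to 21. The cupin relatives lower and higher than in BoGa numbered 26 to 29 and 8 to 11 under the other settings, and the dirigent relatives 18 to 19 and 12 to 13. Replicate numbers were not treated as pairs: deviations of same-numbered libraries correlated at -0.40 to 0.42, with 2 of 9 pairs over 0.1, and 4 of 18 combinations correlated best with their own number. With the replicate block, 28 neighbours were lower and 19 higher in Mpb-gata1-2 than in BoGa, and 24 were lower and 19 higher than in Mpb-gata1-1. Genes without a read in Mpb-gata1-2 have no finite fold, and at 1 to 2 CPM elsewhere depth limits the bound to under 75-fold.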
